A study of Mus musculus with 17 samples.

Results

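Acute phase proteins are plasma proteins whose synthesis in the liver changes with inflammation. The genes described here are Saa1, Saa2, Saa4, Orm1, Hp, Hpx, Fga, Fgb, Fgg and Lcn2, taken by symbol from the annotation of a mouse cDNA array. Of these 10 genes, 9 had a probe, with 11 probes in all among 20794, and the array held 9030 named genes. Saa2 had no probe under its symbol. Saa4 and Lcn2 had 2 probes each, which were averaged. The question was how these genes stood in livers of Afp knockout mice, and whether they moved together within an animal.

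Each mutant liver was hybridised in 2 colours alongside pooled wild-type liver RNA, so every value is a log2 ratio of mutant over pool, and 0 means equal signal in both. The adult mutants were 6 males aged 17 weeks, set against a pool of 6 control animals; 5 of them were measured with the mutant in Cy5 and again with the mutant in Cy3, and adult 5 with the mutant in Cy5 alone. The mutant embryos were 3 males (embryos 1 to 3) and 3 females (embryos 4 to 6), each on 1 array with the mutant in Cy5, against a pool of 4 wild-type animals. The labels give embryonic day 7.5 for tissue they call fetal liver, and that day is kept here as a label only. They call the fetal pool male for embryos 1 and 2 and female for embryos 3 to 6. Wild-type livers entered only as pools, so their own animal-to-animal spread is part of no test. In whole liver, fewer cells of a type and less RNA per cell cannot be told apart, and ratios give no level by which the labelled tissue could be checked.

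The 17 arrays held 20078 to 20697 values each, and precision is limited by the 6 animals of each age. Afp itself averaged -8.40 ± 0.23 in mutant embryos (SD, n = 6), with limma's adjusted p = 1.14e-08, and -0.03 ± 0.19 in adult mutants (SD, n = 6). Adult 1 stood apart on its Cy5 array, whose interquartile range was 0.411 against 0.744 to 0.910 on the other adult Cy5 arrays. The log base, the direction of the Cy3 arrays and the row naming of the fetal values are inferences from the values, as the processing section states.

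The acute phase response is driven in hepatocytes mainly by interleukin-6 and interleukin-1, which act through the transcription factors STAT3, C/EBP and NF-kappaB. Serum amyloid A, orosomucoid, haptoglobin, hemopexin, fibrinogen and lipocalin 2 are positive acute phase proteins, whereas albumin and transthyretin are negative ones. In the mouse, Saa1 and Saa2 respond strongly to inflammation and Saa4 is made constitutively.

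The sequences upstream of 5 of these genes are printed because their values are followed below as 2 groups of neighbours, the fibrinogen chain genes and the serum amyloid A genes. They are the 250 bases before each annotated start, from RefSeq on build GRCm38.p6, written 5′ to 3′ on the strand of the gene. Capitals mark matches on either strand to CTGGGAA (the type II interleukin-6 response element), TTGCNNAA (a C/EBP-type motif) or TTCNNNGAA (a STAT palindrome); none of these matches overlapped. Fgg lies at chr3:83007474-83007723, plus strand, Fga at chr3:83025903-83026152, plus strand, and Fgb at chr3:83049864-83050113, minus strand. Saa1 lies at chr7:46742981-46743230, minus strand, and Saa2 at chr7:46751583-46751832, plus strand.
Fga: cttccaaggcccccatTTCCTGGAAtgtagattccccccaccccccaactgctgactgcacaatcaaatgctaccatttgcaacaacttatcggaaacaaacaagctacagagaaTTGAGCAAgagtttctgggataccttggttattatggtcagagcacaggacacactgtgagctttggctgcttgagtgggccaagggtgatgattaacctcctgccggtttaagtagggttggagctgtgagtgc
Fgb: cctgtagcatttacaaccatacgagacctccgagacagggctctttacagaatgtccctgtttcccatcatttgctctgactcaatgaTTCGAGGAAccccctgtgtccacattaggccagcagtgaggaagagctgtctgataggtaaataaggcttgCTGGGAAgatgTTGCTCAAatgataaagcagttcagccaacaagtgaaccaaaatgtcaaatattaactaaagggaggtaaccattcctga
Fgg: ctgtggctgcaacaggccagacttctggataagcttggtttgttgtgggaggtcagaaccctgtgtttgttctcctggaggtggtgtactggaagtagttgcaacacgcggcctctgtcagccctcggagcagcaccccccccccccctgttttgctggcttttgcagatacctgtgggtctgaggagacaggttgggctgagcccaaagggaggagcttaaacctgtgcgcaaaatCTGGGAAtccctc
Saa1: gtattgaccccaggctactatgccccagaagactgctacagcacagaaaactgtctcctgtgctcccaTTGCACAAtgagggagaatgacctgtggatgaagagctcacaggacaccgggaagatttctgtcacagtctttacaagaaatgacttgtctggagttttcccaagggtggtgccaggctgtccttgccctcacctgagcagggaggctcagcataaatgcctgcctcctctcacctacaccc
Saa2: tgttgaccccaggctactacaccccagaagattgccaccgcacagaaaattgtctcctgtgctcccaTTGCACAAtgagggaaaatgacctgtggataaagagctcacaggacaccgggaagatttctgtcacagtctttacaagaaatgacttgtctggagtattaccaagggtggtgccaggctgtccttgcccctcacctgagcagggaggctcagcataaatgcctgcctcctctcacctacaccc

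CTGGGAA was present upstream of Fgb and Fgg and absent from this window of Fga, and 9.10% of all 32851 windows of this length held it. TTCNNNGAA was present upstream of Fga and Fgb, and in 7.02% of all windows. TTGCNNAA was found in 7 of the 8 genes with a sequence, Fgg being the exception, and in 9.56% of all windows. TATAAA, a core promoter motif found in 12.4% of all windows, was not present in any of the 8. A match describes letters only. The starts of Fga and Fgg lie 18429 bases apart, and those of Fga and Fgb 23710. The windows of Saa1 and Saa2, whose starts lie 8853 bases apart on opposite strands, were identical in 238 of 251 aligned columns (94.8%), against 49.5% for Saa1 and Saa4 and 47.7% to 49.7% among the fibrinogen chain genes. Saa1 and Saa2 transcripts are near-identical in the mouse, so signal at the Saa1 probe may include Saa2, which was not tested.

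No acute phase gene passed limma's test in adults, with 0 of 9 at an adjusted p under 0.05, where 0% of all 17039 features did so. At an unadjusted p under 0.05, 0 of the 9 genes passed, against 7.71% of all features. The values instead differed from adult to adult, and adult 1 held the highest value of 7 of the 9 genes, where 19.2% of all 8762 named genes with a value in every adult were highest in adult 1. The 7 were Saa1, Saa4, Orm1, Hp, Fga, Fgb and Fgg, while Hpx was highest in adult 4 and Lcn2 in adult 6. Other liver secretory lists were also often highest in adult 1, with 60% of 5 hepatocyte markers, 58.8% of 17 coagulation genes, 57.1% of 14 negative and 50% of 22 other positive acute phase genes. On the Cy5 arrays alone, adult 1 was highest for 7 of the 8 acute phase genes with a value in all 6 adults, against 16% of named genes. On the Cy3 arrays alone, adult 1 was highest for 4 of the 8 acute phase genes with a value in all 5 adults, as it was for 26.7% of named genes. Hp, which lacks a value in adult 3 there, was also highest in adult 1. With the Cy3 arrays turned in sign, adult 1 was highest for 6 of the 9 (Saa1, Saa4, Orm1, Fgb, Fgg and Lcn2), against 22% of named genes. Under that turn 1760 features passed, and of these 9 genes Fga passed with a mean of 0.78.

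**Figure D1:**
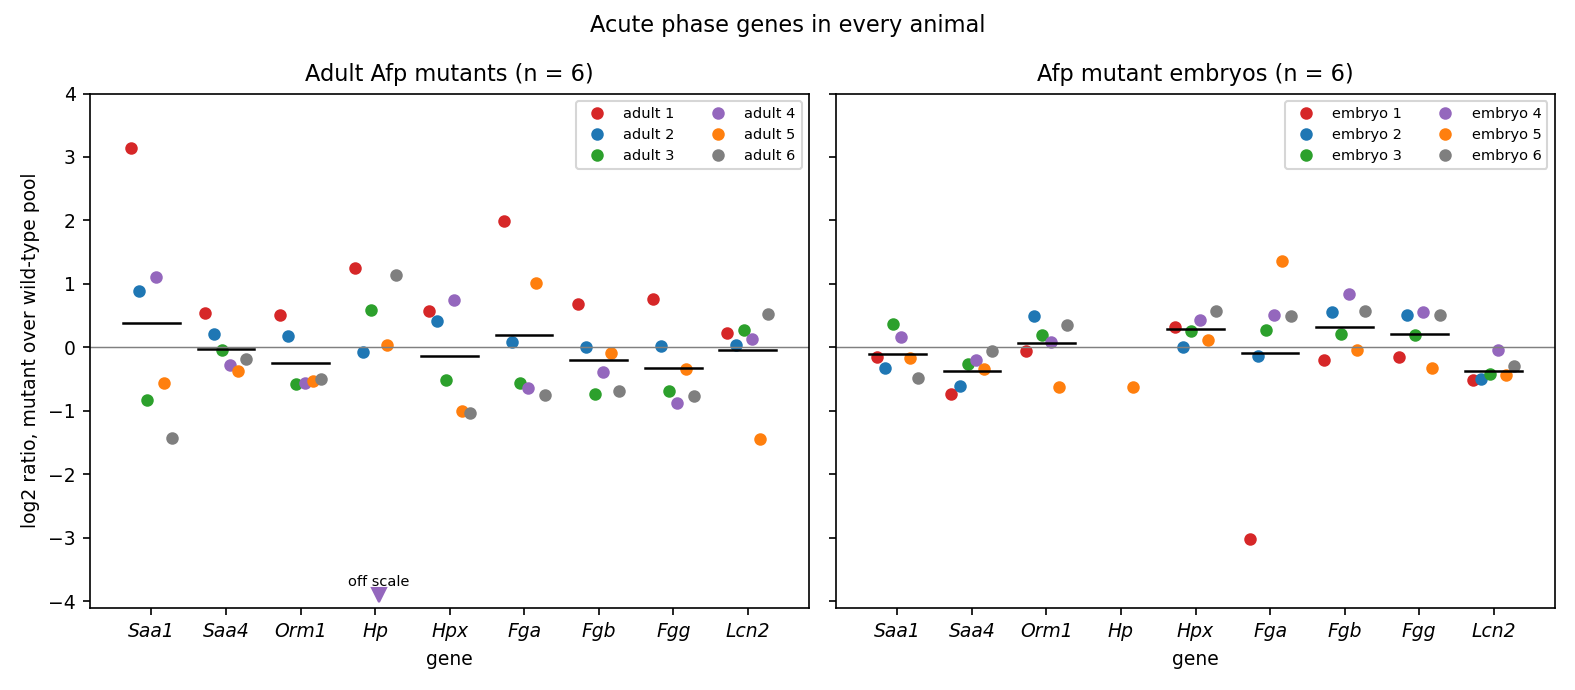
Log2 ratio of mutant over wild-type pool (vertical axis) for each acute phase gene (horizontal axis) in 6 adult mutants (left) and 6 mutant embryos (right); points are animals, coloured by number, and black lines are means over animals, left out for Hp. Adult 1 is highest for 7 of the 9 genes, Saa1 spreads from -1.43 to 3.14 among the adults, and the off-scale triangle is Hp in adult 4 at -8.57.

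Saa1, which encodes a serum amyloid A protein carried on high-density lipoprotein, had the widest spread in adults after Hp. Its log2 ratio was 3.14 in adult 1, 0.89 in adult 2, -0.83 in adult 3, 1.11 in adult 4, -0.57 in adult 5 and -1.43 in adult 6. Thus 3 adults lay above the pool and 3 below it, with adult 1 far above the others. The mean was 0.38 ± 1.67 (SD, n = 6; limma's adjusted p = 0.838), and without adult 1 it was -0.17 ± 1.11 (SD, n = 5). Its SD stood at the 98.3 percentile of all named genes, whose median SD was 0.34. Among all named genes of the same animal, Saa1 stood at the 99.8 percentile in adult 1, 98.3 in adult 2 and 99.0 in adult 4, and at 4.6 in adult 3, 17.5 in adult 5 and 1.5 in adult 6. In the mutant embryos Saa1 lay between -0.47 and 0.38, with a mean of -0.10 ± 0.32 (SD, n = 6; limma's adjusted p = 0.668).

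Saa4, the constitutive serum amyloid A gene, spread far less in adults. It had 0.55 in adult 1 and 0.21 in adult 2, against -0.03, -0.28, -0.36 and -0.18 in adults 3 to 6, with a mean of -0.02 ± 0.34 (SD, n = 6; limma's adjusted p = 0.976). Its 2 probes did not always share a sign, since on the Cy5 array of adult 6 probe 1236 read -0.91 and probe 9470 read 0.79. In the embryos it had -0.74, -0.60, -0.25, -0.20, -0.34 and -0.06 in embryos 1 to 6. All 6 embryos thus lay below the pool, with a mean of -0.37 ± 0.26 (SD, n = 6), but the gene did not pass (limma's adjusted p = 0.119).

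Orm1, which encodes the plasma protein orosomucoid or alpha-1-acid glycoprotein, had 0.50 in adult 1 and 0.17 in adult 2, against -0.58, -0.55, -0.52 and -0.50 in adults 3 to 6. Adults 1 and 2 lay above the pool and the other 4 lay close together below it. The mean was -0.25 ± 0.47 (SD, n = 6; limma's adjusted p = 0.703), or -0.39 ± 0.32 without adult 1 (SD, n = 5). In the embryos Orm1 ranged from -0.62 in embryo 5 to 0.50 in embryo 2, with a mean of 0.08 ± 0.39 (SD, n = 6; limma's adjusted p = 0.782).

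Hp encodes haptoglobin, which binds free hemoglobin. It had 1.25 in adult 1, -0.07 in adult 2, 0.60 in adult 3, -8.57 in adult 4, 0.05 in adult 5 and 1.15 in adult 6. The value of adult 4 came from its Cy3 array, which read -16.9, the lowest value on that array, while its Cy5 array read -0.23. Adults 3 and 6 had a value on 1 array each. The mean was -0.93 ± 3.78 (SD, n = 6; limma's adjusted p = 0.826), and 0.46 with values beyond 10 in size left out. Only embryo 5 had a value, -0.62, so Hp was not tested in the embryos.

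Hpx encodes hemopexin, the plasma carrier of free heme. It had 0.58, 0.41, -0.51, 0.75, -1.0 and -1.04 in adults 1 to 6. Adults 1, 2 and 4 lay above the pool and adults 3, 5 and 6 below it, the same division of animals as for Saa1. For Hpx this holds for the averaged arrays only. Its Cy5 and Cy3 arrays read -0.15 and 0.98 in adult 2, and -1.07 and 0.05 in adult 3. The mean was -0.13 ± 0.81 (SD, n = 6; limma's adjusted p = 0.893). In the embryos it had 0.32, 0.00, 0.27, 0.44, 0.11 and 0.57, none below the pool, and averaged 0.29 ± 0.21 (SD, n = 6; limma's adjusted p = 0.136).

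The fibrinogen chain genes Fga, Fgb and Fgg encode the alpha, beta and gamma chains that are assembled into the clotting protein fibrinogen. Fgb had 0.68 in adult 1, 0.00 in adult 2, -0.73 in adult 3, -0.39 in adult 4, -0.08 in adult 5 and -0.69 in adult 6. Fgg followed closely, with 0.76, 0.03, -0.69, -0.88, -0.35 and -0.77 in adults 1 to 6. For both genes adult 1 alone lay clearly above the pool, adult 2 lay near 0 and the other 4 adults lay below it. Fgb averaged -0.20 ± 0.53 (SD, n = 6; limma's adjusted p = 0.761), and -0.38 ± 0.34 without adult 1 (SD, n = 5). Fgg averaged -0.32 ± 0.62 (SD, n = 6; limma's adjusted p = 0.702), and -0.53 ± 0.37 without adult 1 (SD, n = 5). Fga had 1.99 in adult 1, 0.08 in adult 2, -0.57 in adult 3, -0.64 in adult 4, 1.02 in adult 5 and -0.75 in adult 6, and averaged 0.19 ± 1.10 (SD, n = 6; limma's adjusted p = 0.886). It stood above Fgb and Fgg by more than 1 unit in adults 1 and 5 alone. Adult 5 had no Cy3 array, and the dye profile of Fga, the difference between its Cy5 and Cy3 arrays divided by 2 and averaged over 5 adults, was 0.73.

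In the embryos Fgb and Fgg again lay close together. Fgg had -0.15, 0.51, 0.20, 0.56, -0.33 and 0.51 in embryos 1 to 6, with a mean of 0.22 ± 0.38 (SD, n = 6; limma's adjusted p = 0.399). Fgb had -0.20, 0.56, 0.22, 0.84, -0.05 and 0.57, with a mean of 0.32 ± 0.40 (SD, n = 6; limma's adjusted p = 0.250). For both genes embryos 1 and 5 were the lowest and the other 4 lay above the pool. The row naming of the fetal Fgb probe is not settled, because over probes 20001 to 20200 the fetal mean correlated with the adult dye profile at 0.293 for a shift of 11 rows and at 0.312 for 12 (Spearman, across probes). A shift of 12 rows would give Fgb 0.43, 0.21, -0.03, 0.05, -0.14 and -0.41 in embryos 1 to 6. Fga had -3.01 in embryo 1, -0.13 in embryo 2, 0.28 in embryo 3, 0.52 in embryo 4, 1.36 in embryo 5 and 0.49 in embryo 6. Embryos 1 and 5 were thus the lowest and the highest for Fga, and its mean was -0.08 ± 1.51 (SD, n = 6; limma's adjusted p = 0.936).

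**Figure D2:**
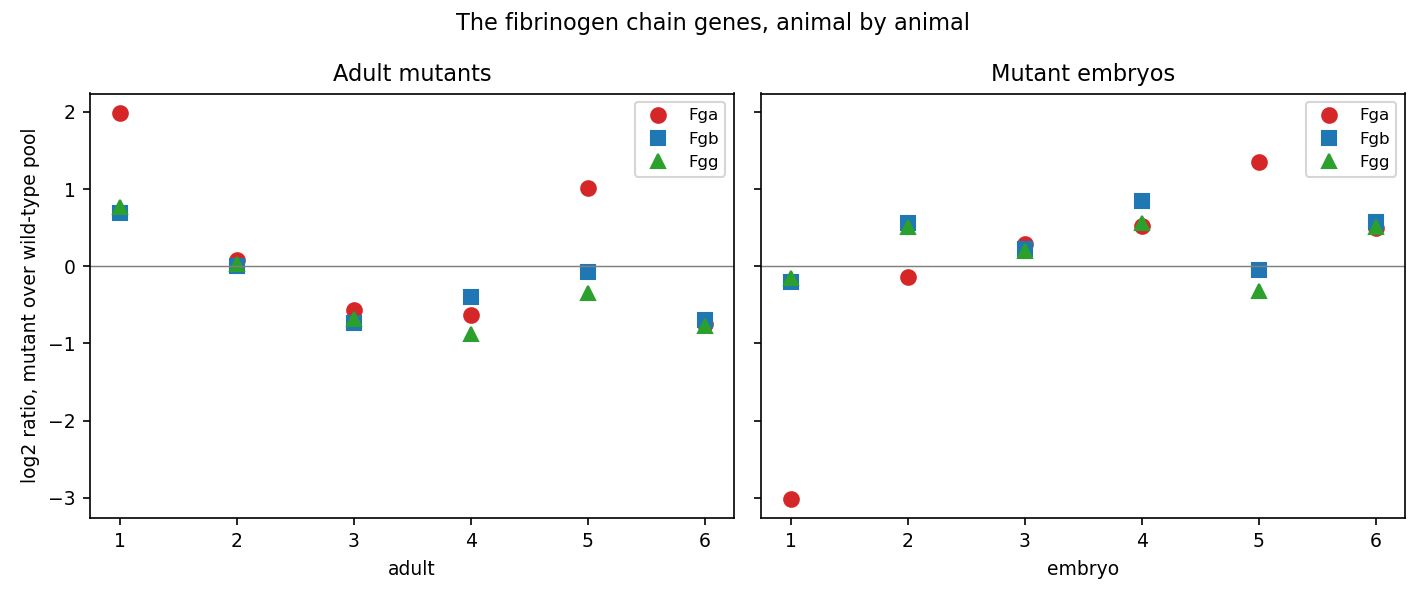
Log2 ratio of mutant over wild-type pool (vertical axis) of Fga, Fgb and Fgg in each adult mutant (left) and each mutant embryo (right); a point is 1 animal. Fgb and Fgg lie within a short distance of each other in most animals and farthest apart in adult 4, whereas Fga stands above them in adults 1 and 5 and in embryo 5 and far below them in embryo 1.

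Lcn2 encodes lipocalin 2, which binds bacterial siderophores and is made by hepatocytes and neutrophils. It had 0.23, 0.04, 0.27, 0.14, -1.45 and 0.53 in adults 1 to 6, so that 5 adults lay above the pool and adult 5 far below it. The mean was -0.04 ± 0.71 (SD, n = 6; limma's adjusted p = 0.964). In adult 5 its probes read -2.76 (probe 1788) and -0.14 (probe 4468), so the low value rests on 1 probe. In the embryos, with its probes averaged, it had -0.51, -0.49, -0.42, -0.04, -0.43 and -0.29, all below the pool. The mean was -0.36 ± 0.18 (SD, n = 6, limma's adjusted p = 0.0883). Probe 1788 read 0.02 in embryo 1 and 0.25 in embryo 4, against -1.05 and -0.33 on probe 4468. Alone, probe 1788 averaged -0.17 in the embryos (limma's adjusted p = 0.418). The median over 11 granulocyte markers was 0.01 in adult 5, where Lcn2 was lowest, and 0.32 in adult 6, where Lcn2 was highest, against -0.13 to 0.02 in the other adults. In adult 5, 6 of the 11 markers lay above 0, among them Camp at 1.12 and Prtn3 at 0.665. Below 0 there were S100a8 at -1.91, Chil3 at -1.19, Mmp8 at -0.76, S100a9 at -0.41 and the neutrophil granule gene Ltf at -0.14. In adult 6 Ltf stood at 4.08, Chil3 at 0.92 and Mmp8 at 0.91, and 7 of the 11 markers lay above 0. Below 0 in that adult were Ngp at -0.38, Camp at -0.30, Mpo at -0.14 and Mmp9 at -0.11. In the embryos the granulocyte median ranged from -0.48 in embryo 2 to 0.14 in embryo 6. There 8 of the 11 genes averaged below 0, where 46% of named genes did, and 0 passed. The part of these markers in the Lcn2 values was not tested.

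In the embryos as in the adults, 0 of the 8 genes tested passed, where 0.253% of 16977 features did. At an unadjusted p under 0.05, limma gave 3 of 8 genes, Lcn2 (p = 0.00219), Saa4 (p = 0.00745) and Hpx (p = 0.0129), against 20.9% of all features. With probes averaged, Lcn2 and Saa4 were below the pool in all 6 embryos, as were 6.46% of named genes. Hpx was above it in all 6, as were 9.03%. With the adult dye profile subtracted, Lcn2, Hpx and Saa1 passed, but so did 5160 features.

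The acute phase genes above 0 were counted in each adult with its arrays averaged. Of 9 genes most must lie on 1 side, so a majority alone says nothing. Among named genes, 4170 of 9020 lay above 0 in adult 1 and 4654 of 9013 in adult 2. For adults 3 and 4 these were 4480 of 9007 and 4523 of 9004. For adults 5 and 6 they were 4022 of 8833 and 4374 of 8998. Adult 1 had all 9 genes above 0 with a median of 0.68, and adult 2 had 8 of 9 above 0 with a median of 0.08. The 2 arrays of adult 2 differed, since only 3 of 9 genes kept their sign. Its Cy5 array alone had 4 of 9 above 0 (median -0.03). Adult 3 had 2 of 9 above 0 (median -0.57), adult 4 had 3 (median -0.39), adult 5 had 2 (median -0.36) and adult 6 had 2 (median -0.69). The median of all named genes lay between -0.07 and 0.01 in these 6 animals, so the group stood above it in adults 1 and 2 and below it in the other 4. Over the 36 pairs of genes the Pearson correlation across the 6 adults had a median of 0.53, ran from -0.52 to 0.95 and was above 0 for 30 pairs, where the median over all pairs of named genes was 0. Fgb and Fgg correlated at 0.94, Fga at 0.92 with Fgb and 0.89 with Fgg, and Orm1 and Fgg at 0.95. These correlations are descriptions over 6 animals whose genes share arrays, and leaving out 1 adult at a time moved the median between 0.28 and 0.69, the lowest without adult 1. On the Cy5 arrays alone the median correlation was 0.71, with a lowest of 0.21 and 28 of 28 pairs above 0. On the Cy3 arrays alone, over 5 adults, it was 0.65, with a lowest of -0.99 and 21 of 28 pairs above 0. With the Cy3 arrays turned in sign the median correlation was 0.27, with a range of -0.97 to 0.91 and 26 pairs above 0. The median over the genes was then 0.25 in adult 1, 0.04 in adult 2, -0.06 in adult 3, 0.15 in adult 4, -0.36 in adult 5 and -0.02 in adult 6. On the Cy5 arrays alone, where that direction plays no part, the medians were -0.48 in adult 3, -0.23 in adult 4 and -0.54 in adult 6. There 2 of 9, 4 of 9 and 2 of 8 genes lay above 0. The shift below the pool in adults 3, 4 and 6 was thus present on the Cy5 arrays. The size and, in adult 4, the sign of the median over both arrays depend on the direction taken for the Cy3 arrays.

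In the embryos the medians covered a narrower range than in the adults. Named genes as a whole also spread less there, with a median SD of 0.23 against 0.34 in the adults. The median over the acute phase genes was -0.18 in embryo 1, -0.07 in embryo 2, 0.21 in embryo 3, 0.30 in embryo 4, -0.33 in embryo 5 and 0.42 in embryo 6. Embryos 1 and 5 had 1 of 8 and 2 of 9 genes above 0. Embryos 2 and 6 had 4 of 8 and 5 of 8, and embryos 3 and 4 had 6 of 8 each. Among named genes, 4638 of 8982 lay above 0 in embryo 1 and 4879 of 8980 in embryo 2. For embryos 3 and 4 these were 4698 of 8982 and 5112 of 8983. For embryos 5 and 6 they were 4478 of 9004 and 4968 of 8926. Over 28 pairs the median correlation across embryos was 0.32, with a range of -0.15 to 0.94 and 22 pairs above 0, where the median over all pairs of named genes was 0 and 49.9% lay above 0. Leaving out 1 embryo at a time moved this median between 0.14 and 0.54, the lowest without embryo 1. Fgb and Fgg were the highest at 0.94, under the row naming used, while Fga stood at 0.46 with Fgb and 0.22 with Fgg.

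The named genes whose pattern was most like the mean of the acute phase genes differed with a single value. In adults they were Fxyd1, Cyp2d9, Uqcrc2, 1300017J02Rik and Tuba1c (Pearson r of 0.990 to 0.995 over 6 adults, among 8753 genes), where the mean is pulled down by Hp in adult 4. With values beyond 10 in size left out they were Zbtb8os, Bst2, Nedd8, Klf13 and Eef1a1 (0.987 to 0.995, among 8730 genes). In the embryos they were Glb1, Hpd, Dnaja3, Slc25a41 and Tmed4 (0.988 to 0.995 over 6 embryos, among 8852 genes).

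The adults measured with both dyes gave each gene 2 arrays per animal. The acute phase genes had the same sign on both in 30 of 43 pairs of arrays (69.8%), against 39.5% of 43980 such pairs over all named genes, a difference that was not tested. Saa1 and Orm1 kept their sign in 5 of 5 adults, as 2.01% of genes did. For Saa1 the Cy5 and Cy3 arrays read 3.98 and 2.29 in adult 1, 1.31 and 0.47 in adult 2, -0.78 and -0.88 in adult 3, 1.55 and 0.66 in adult 4, and -1.13 and -1.73 in adult 6. Hp kept its sign in 3 of 3 adults. Its Cy5 and Cy3 arrays read 1.12 and 1.37 in adult 1, -0.03 and -0.12 in adult 2, and -0.23 and -16.9 in adult 4. Fgb and Fgg kept their sign in 4 of 5 adults, Saa4 and Hpx in 3, Lcn2 in 2 and Fga in 1. These counts hold with the Cy3 arrays as deposited; were those arrays turned in sign, each agreement would become a disagreement.

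**Figure D3:**
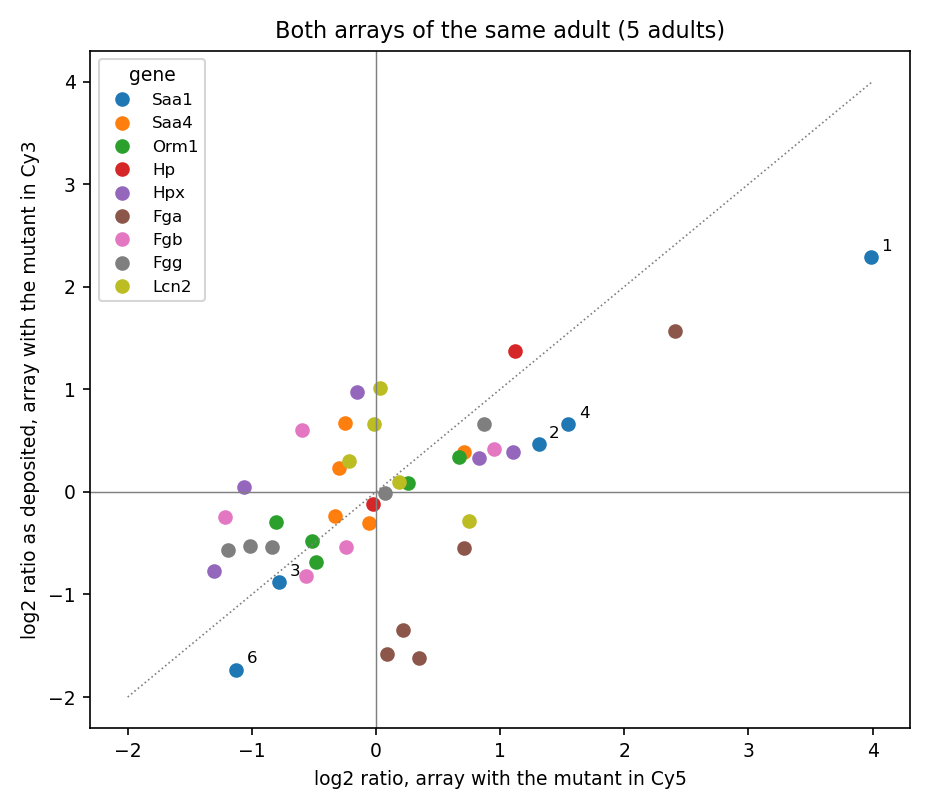
Log2 ratio on the array with the mutant in Cy5 (horizontal axis) and, as deposited, on the array with the mutant in Cy3 (vertical axis) for each acute phase gene in the 5 adults with both; numbers mark the adult for Saa1, the dotted line marks equal values, and Hp in adult 4, at -0.23 and -16.9, is left out. Saa1 has the same sign on both arrays in all 5 adults, and Fga lies right of and below 0 in 4 of 5.

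The comparison of ages asked whether the ratio to the pool differed between adult and embryonic mutants, using arrays with the mutant in Cy5. None of the 8 genes tested passed limma's adjusted threshold, which 0.166% of 16822 features passed, and 0 of 8 had an unadjusted p under 0.05, against 20.1% of features. Fgg averaged -0.41 ± 0.78 in adults and 0.22 ± 0.38 in embryos (SD, n = 6 each), a difference of -0.63 (adult minus fetal; limma's adjusted p = 0.305). Fgb averaged -0.29 ± 0.72 in adults and 0.32 ± 0.40 in embryos (SD, n = 6 each), a difference of -0.62 (limma's adjusted p = 0.292), under the row naming used. Hpx differed by -0.55 (adjusted p = 0.458), Orm1 by -0.31 (0.544), Lcn2 by 0.25 (0.659), Saa4 by 0.27 (0.480), Saa1 by 0.83 (0.548) and Fga by 0.88 (0.464). Several of these differences changed in size when 1 animal was left out. Without adult 1, Saa1 differed by 0.17, Saa4 by 0.10 and Lcn2 by 0.07, while Orm1 differed more, by -0.49. Without adult 5, Lcn2 differed by 0.51. Without embryo 1, Fga differed by 0.30. No gene had all 6 adults above or all 6 below the embryos, where 1.07% and 1.35% of named genes did. Without adult 1 the number of features passing was 1266, but none of these genes passed, Fgb coming nearest with an adjusted p of 0.0504. Each age had its own pool, which cannot be told apart from age.

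Between female and male embryos none of the 8 genes passed, where 0.0118% of 16949 features did; unadjusted, 0 of 8 did against 3.13%. Fga averaged 0.79 in females and -0.95 in males, a difference of 1.74 (n = 3 each; limma's adjusted p = 0.997), and all females lay above all males, as for 4.50% of named genes. Leaving out 1 embryo at a time gave 0.71 to 2.36, the lowest without embryo 1, whose value was -3.01. The other 7 genes differed by -0.27 to 0.33. Among the 4 embryos whose pool is labelled female, Fga averaged 0.79 in the 3 females and had 0.28 in the 1 male, a difference of 0.51.

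Beside the acute phase genes, other positive acute phase genes had a median of 0.25 in adult 1 and 0.06 in adult 5, against -0.05, -0.41, -0.31 and -0.52 in adults 2, 3, 4 and 6 (22 genes). Negative acute phase genes did not run opposite to them: their medians over 14 genes were -0.03, -0.16, -0.58, -0.51, -0.26 and -0.59 in adults 1 to 6. Hepatocyte markers, 5 genes of which some, such as Alb, are also on that list, had 0.18, -0.16, -0.91, -0.80, -0.24 and -0.88. Hepatocyte markers were lowest in adults 3, 4 and 6, as were Fgb and Fgg. Orm1 was as low in adult 5, at -0.52, where the hepatocyte median was only -0.24, and the part of the hepatocyte markers in those values was not tested. In adults 0 genes of any of these lists passed limma's adjusted threshold, although all 14 negative acute phase genes averaged below 0, where 51.1% of named genes did. At an unadjusted p under 0.05, 6 of the 14 lay lower (42.9%), against 4.94% of named genes. Among them Rbp4, the plasma retinol carrier, averaged -0.54 ± 0.32 and Pon1, the paraoxonase carried on high-density lipoprotein, -0.58 ± 0.43 (SD, n = 6; limma's adjusted p = 0.639 each).

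**Figure D4:**
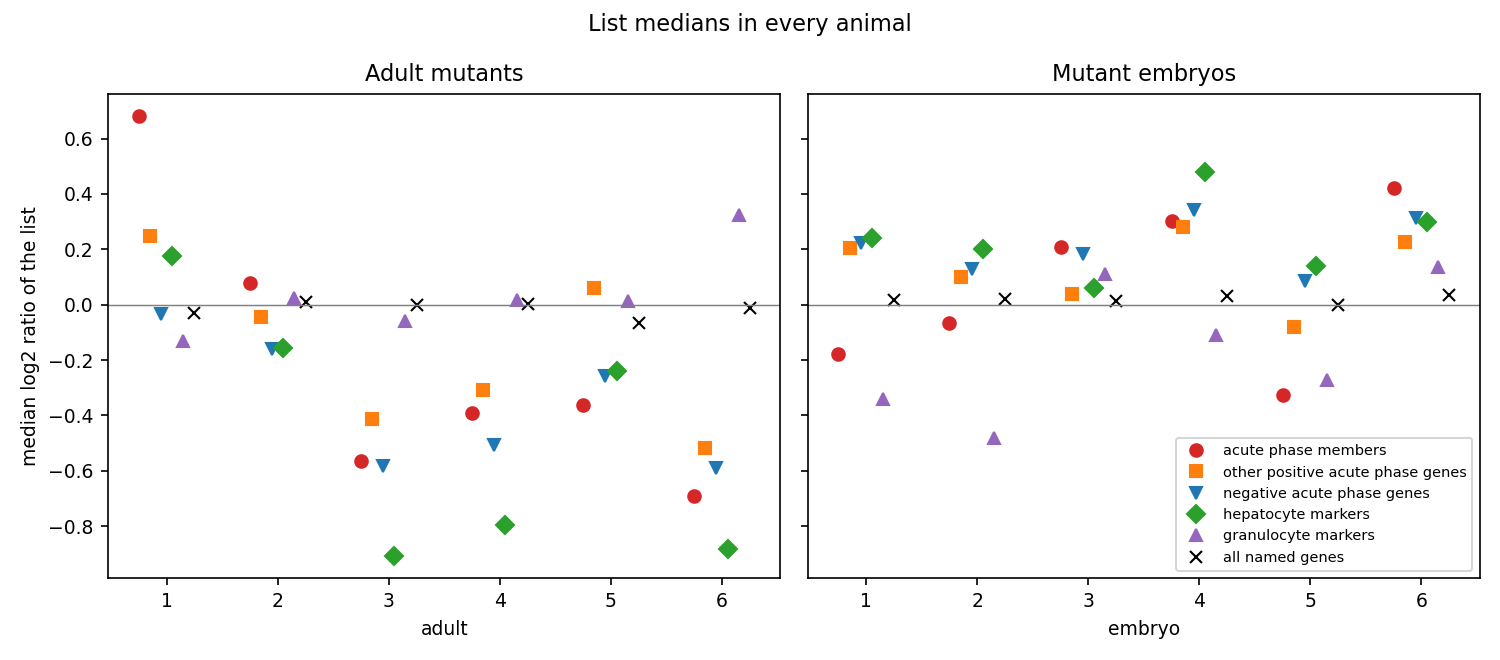
Median log2 ratio of mutant over wild-type pool (vertical axis) of 5 gene lists and of all named genes in each adult mutant (left) and mutant embryo (right); a point is the median of 1 list in 1 animal. In adults 3, 4 and 6 the acute phase genes and the hepatocyte markers lie below 0 together, while in adult 1 the acute phase genes stand highest at 0.68 and all named genes at -0.03.

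In the embryos 2 of 22 other positive acute phase genes and 1 of 14 negative ones passed, where 43 of 16977 features did (0.253%). Mt1, a metal-binding metallothionein, rose by 1.02 ± 0.40 (SD, n = 6; limma's adjusted p = 0.0493). Serpina1b, one of several near-identical mouse alpha-1-antitrypsin genes whose signals a cDNA probe may not separate, rose by 0.70 ± 0.24 (SD, n = 6; adjusted p = 0.0493), and had 0.088 once the dye profile of the adults was taken off. Afm, encoding afamin, rose by 0.83 ± 0.16 (SD, n = 6; adjusted p = 0.0240). With the adult dye profile taken off, Mt1 had 0.78 and Afm 1.06. Leaving out any 1 embryo brought the number of features passing in the embryos to 2 or 3. Of the coagulation genes 12 of 17 averaged above 0 in the embryos, where 4855 of 8987 named genes did, and 0 passed. In adults 14 of 17 averaged below 0, where 51.1% of named genes did, and 0 passed.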

How the data were processed

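The authors deposited log2 ratios of mutant over wild-type pool for 20794 probes on 17 arrays; the log base is inferred from the values. Image analysis, background correction and normalization: not given in the sources used here. Symbols from the platform annotation named 12771 probes and left 8023 unnamed. Fetal values of probe p were read from row p + 11, and arrays with the mutant in Cy3 were left as deposited, taken as already turned; both were inferred from the data. At that shift the fetal mean had a Spearman correlation of 0.382 with the adult dye profile, against 0.016 as deposited (across probes 1 to 20000), which is part of the evidence for the shift. For the Cy3 arrays as deposited, 39.5% of gene-by-animal pairs over all named genes shared a sign with the Cy5 array. In adults 0 features passed as deposited and 1760 with those arrays turned, and these counts alone do not settle the direction. Alternatives changed dye use, row naming, filters, centring and animals. An adult's arrays were averaged first, then probes of a gene. Whole tables were fitted with limma 3.58.1 in R 4.3.3 (lmFit, eBayes), needing 4 of 6 values, or 2 per sex, with Benjamini-Hochberg adjustment over all features and a threshold of 0.05; the fit was tested on simulated data. All acute phase genes with a probe are named; of other lists, the genes that passed, otherwise the 2 with the smallest p, as examples; of the remaining genes, the 5 most like the mean pattern. Genes, lists and tests were chosen with earlier results of these data known. Replicates are separate animals, per the labels.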

Additional observations from a re-analysis of the deposited data

Results flagged for a closer look

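Within a group of 6 animals, 3 values lay far from the others, out of 17 groups examined by Dixon's criterion, which picks about 1 in 20 groups by chance. Hp in adult 4 stood at -8.57, set by a reading of -16.9 on its Cy3 array, against -0.23 on its Cy5 array. Lcn2 in adult 5, which had 1 array, stood at -1.45, with its probes at -2.76 and -0.14. Fga in embryo 1, on 1 probe and 1 array, stood at -3.01, against -0.13 to 1.36 in the other embryos.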

How the results depend on the processing

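Of the acute phase genes, those that passed under any alternative run were Fga at 0.78 in adults with the Cy3 arrays turned in sign, and in the embryos Saa1 at -0.51, Hpx at 0.44 and Lcn2 at -0.29 with the adult dye profile subtracted. Limits are the inferred direction of the Cy3 arrays, the inferred fetal row naming, few animals, and no reading of signal over background; the cause of the changes below was not tested.

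In adults the features passing numbered 0, against 1760 with the Cy3 arrays turned in sign, 1106 with the Cy5 arrays alone and 699 with the Cy3 arrays alone. Hp turned to 0.46 with values beyond 10 left out, 1.29 with the Cy3 arrays turned and 0.30 on the Cy5 arrays. On the Cy3 arrays alone Saa4 stood at 0.15, Hpx at 0.20, Fga at -0.71 and Lcn2 at 0.36, and 4 of 8 genes with a value in all 5 adults were highest in adult 1, against 7 of 9. In the 5 adults with both dyes Saa4 stood at 0.053, Hpx at 0.039 and Lcn2 at 0.24, and probe 9470 alone gave Saa4 0.089. Leaving out 1 adult at a time gave 0 features each time, Saa1 -0.17 to 0.75, Saa4 -0.13 to 0.053, Hp -1.37 to 0.59, Hpx -0.31 to 0.046, Fga -0.17 to 0.38, Lcn2 -0.15 to 0.24 and a median over the genes of -0.28 to 0.02.

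In the embryos the 43 features passing became 25 with arrays centred, 80 without values beyond 10, 88 with every probe on its own, 26 with rows as deposited, 26 with rows past probe 20000 unnamed (an alternative chosen after seeing the data) and 5160 with the dye profile subtracted. Leaving out 1 embryo at a time gave 2 to 3 features, Orm1 -0.0082 to 0.21, Fga -0.37 to 0.50 and a median over the genes of -0.05 to 0.19. With rows as deposited Saa1 stood at 0.23, Saa4 at 0.24, Orm1 at -0.064, Fgg at -0.024 and Lcn2 at 0.092.

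For adult minus fetal the 28 features became 51 without values beyond 10, 1579 with rows as deposited and 9 with animal means over both dyes, and 5 to 1266 leaving out 1 animal at a time, with a median over the genes of -0.21 to 0.03; rows as deposited gave Saa4 -0.34 and Lcn2 -0.21. Adult arrays and embryos share only title numbers, and their deviations correlated at 0.002 to 0.02 for the 3 shared numbers; the replicate block gave 11 features, Orm1 0.31, Fgg 0.12 and a median over the genes of 0.40. For female minus male the 2 features became 0 without values beyond 10 and 0 with complete values, and 0 to 4 leaving out 1 embryo, with Saa1 at -0.29 to 0.081, Orm1 at -0.48 to 0.0035 and Fgg at -0.11 to 0.35; rows as deposited gave Saa1 0.019, Fga -0.0023, Fgb -0.055 and Fgg -0.017.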

Other observations

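The genes that carry the inflammatory signal to the liver were examined as a further list. Of 36 interleukin-6 and interleukin-1 signalling genes with a value, 16 averaged above 0 and 20 below in adults. That is 55.6% below, against 51.1% of named genes. In the embryos 26 averaged above 0 and 10 below (27.8%), against 46% of named genes below. At either age 0 passed limma's adjusted threshold. At an unadjusted p under 0.05, 5 of 36 passed in adults (13.9%, against 7.71% of all features) and 7 of 36 in the embryos (19.4%, against 20.9% of all features). Cebpd, a C/EBP transcription factor induced in inflammation, had 0.98, 0.63, 0.84 and -0.05 in adults 1 to 4 and no value in adults 5 and 6 (limma's adjusted p = 0.639). Fos, a subunit of the AP-1 transcription factor, averaged -0.52 ± 0.42 in adults (SD, n = 6; adjusted p = 0.639).

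Cd163, the macrophage receptor that takes up haptoglobin bound to hemoglobin, averaged -0.32 ± 0.26 in adults, below the pool in 6 of 6 (SD, n = 6; adjusted p = 0.639), and 0.23 ± 0.18 in the embryos, above it in 6 of 6 (SD, n = 6; adjusted p = 0.172). Kupffer cell markers, 6 genes, had medians between -0.12 and 0.24 in adults and between -0.23 and 0.10 in the embryos. On the Cy5 arrays Cd163 differed by -0.74 (adult minus fetal; limma's adjusted p = 0.0880), which did not pass, and age and pool cannot be told apart.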
